A study of Mus musculus with 9 samples.

Results

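Fc receptors bind the constant part of antibodies, and 7 mouse genes of this family or of its signalling were followed through RNA-seq of brain myeloid cells. They are the Fc gamma receptors Fcgr1, Fcgr3, Fcgr4 and Fcgr2b, the shared signalling chain Fcer1g, the Fc receptor-like gene Fcrls, and Fcgrt, the heavy chain of the neonatal Fc receptor. The genes were chosen by name, and all 7 were found among the 36528 gene rows and passed the filter on low counts, which 12250 genes passed. The cells were sorted by Cd11b, an integrin chain of microglia and other myeloid cells, from mice aged 11 to 12 months. The Tau-P301L group held 5 libraries, 1 and 2 from females and 3 to 5 from males, and the mice carried a tau transgene with the P301L mutation. The wild-type group held 4 libraries, 1 and 2 from females and 3 and 4 from males, from littermates without the transgene. The promoter of the transgene is not given in the sources used here. Whether libraries are separate mice the labels do not say, and p-values therefore describe the spread among these libraries, which may be technical.

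Antibody-coated material clusters the activating receptors (Fcgr1, Fcgr3 and Fcgr4), which signal through tyrosines in the paired chain Fcer1g, an immunoreceptor tyrosine-based activation motif (ITAM). Fcgr2b binds the same antibodies but carries an inhibitory motif (ITIM) in its own tail, so the ratio of activating to inhibitory receptors sets how strongly a myeloid cell responds to an immune complex. Microglia use these receptors to take up antibody-bound targets, and the chain Tyrobp, which serves Trem2, is the other main ITAM adaptor of these cells.

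Several of the genes lie close together on chromosome 1 (RefSeq positions, GRCm38.p6): Fcgr2b at chr1:170960558-170976071, Fcgr4 at chr1:171018926-171029761, Fcgr3 at chr1:171051169-171065915 and Fcer1g at chr1:171229572-171234349. Fcgr1 at chr3:96282909-96293969 and Fcrls at chr3:87250736-87263765 lie on chromosome 3, and Fcgrt at chr7:45092993-45103822 on chromosome 7. The signalling motifs are shown as coding letters from the GENCODE M21 transcripts (GRCm38), with the tyrosine codons in capitals. The Fcer1g motif spans an exon junction within chr1:171229889-171230072 on the minus strand, the Tyrobp motif one within chr7:30415670-30417382 on the plus strand, and the Fcgr2b motif lies at chr1:170961071-170961088 on the minus strand.
Fcer1g ITAM: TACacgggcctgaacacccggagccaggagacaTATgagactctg
Tyrobp ITAM: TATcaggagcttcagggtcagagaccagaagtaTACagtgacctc
Fcgr2b ITIM: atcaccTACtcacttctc
Of the 7 genes, an ITAM match (a tyrosine, 2 codons, then leucine or isoleucine, repeated after 6 to 8 codons) was found in Fcer1g alone, and 2.89% of 20338 mouse coding sequences hold one. An ITIM match was isoleucine, valine, leucine or serine, any codon, a tyrosine, 2 codons, then leucine or valine. It is common, at 41.8% of the same sequences, and was also found in Fcgr1, Fcgr4, Fcer1g, Fcgrt and Tyrobp. A match therefore describes letters and not a working motif.

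Fcgr2b and Fcgr3 are near-copies over part of their length, which matters here because only uniquely aligned reads were counted. Their coding sequences were identical at 664 of 757 aligned bases (87.7%). The longest run they share exactly, 129 bases in a pair of exons within chr1:170966674-170968081 of Fcgr2b and chr1:171054167-171057792 of Fcgr3 (both on the minus strand), leaves a read that falls wholly inside it with no unique place.
Shared by Fcgr2b and Fcgr3: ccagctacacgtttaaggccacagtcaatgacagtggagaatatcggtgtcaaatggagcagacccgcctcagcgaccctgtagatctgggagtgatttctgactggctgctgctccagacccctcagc
In the other 20 pairs of members the longest exact run was 8 to 15 bases. Of all 50-base windows of the transcripts, 12.8% in Fcgr3 and 8.6% in Fcgr2b also occurred in another gene, against 0% in each of the other 5 members. The 166 such windows of Fcgr3 occurred in Fcgr2b alone. Of the 288 such windows of Fcgr2b, 166 occurred in Fcgr3, and together they touched 145 other genes, Fcgr3 included. Reads confined to such windows are not counted, so levels of Fcgr3 and Fcgr2b are uncertain and may be too low.

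The libraries held 1.49 to 3.79 M reads in genes, and 3 reads in a library equalled 0.79 to 2.01 CPM (counts-per-million). The 10 microglial markers summed to 8796 to 15872 CPM in Tau-P301L libraries and 11041 to 15236 CPM in wild-type libraries, and 10 of 10 were tested. Markers of other cells that can carry Fc receptors had far lower sums. Of the 12 NK and T cell markers and the 10 mast cell and basophil markers 0 were expressed enough to test, and their sums reached at most 3.49 and 5.83 CPM in Tau-P301L libraries and 4.60 and 2.39 CPM in wild-type libraries. Ncr1, Nkg7, Gzma, Cd3e, Cd3g, Cpa3, Mcpt4, Cma1, Tpsb2, Tpsab1 and Fcer1a were at 0 in every library, as was the B cell gene Pax5. The 10 border macrophage markers, 6 of them tested, summed to 149 to 300 CPM in Tau-P301L libraries and 231 to 315 CPM in wild-type libraries. Of the 12 neutrophil markers 4 were tested and the sum, mostly Csf3r, was 369 to 1326 CPM in Tau-P301L and 717 to 1162 CPM in wild-type libraries. Monocyte markers (2 of 10 tested) summed to 42.6 to 82.9 CPM in Tau-P301L and 32.9 to 81.1 CPM in wild-type libraries, dendritic cell markers (5 of 8 tested) to 63.9 to 199 CPM and 38.2 to 108 CPM, and B cell markers (1 of 8 tested, Cd22) to 14.3 to 35.6 CPM and 10.7 to 24.1 CPM. The part of these cells in the Fc receptor levels was not tested. Tau-P301L libraries 3 and 5 had the fewest genes at 10 reads or more (9928 and 9063, against 10589 to 12101 in the other 7). They also had the highest sums of the 8 astrocyte markers (623 and 720 CPM), though Tau-P301L library 4 was close to library 3, at 575 CPM. Library 5 was also the shallowest and had the highest sum of the 8 oligodendrocyte markers, 1445 CPM.

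Per unit of length, the signalling chain had the highest mean level, and the members' levels spread widely. On the deposited RPKM scale (reads scaled by depth and gene length), averaged over the 9 libraries, Fcer1g stood at 46.6, Fcrls at 32.0, Fcgr3 at 21.6, Fcgr1 at 6.89, Fcgr2b at 3.95, Fcgrt at 0.702 and Fcgr4 at 0.445. Among the 31049 genes with a symbol Fcer1g ranked 99, Fcrls 160, Fcgr3 276, Fcgr1 1128 and Fcgr2b 2121. The highest mean, that of the chain Fcer1g, was 105 times the lowest, that of the receptor Fcgr4. The steps of RPKM between Fcgr3 and Fcgr1, Fcgr1 and Fcgr2b, and Fcgr2b and Fcgrt held in 9 of 9 libraries, with mean log2 ratios of 1.65 ± 0.23, 0.86 ± 0.64 and 2.62 ± 1.03 (SD, n = 9). Fcrls exceeded Fcgr3 in 8 of 9 libraries (log2 ratio 0.55 ± 0.28), the exception being Tau-P301L library 1. Fcer1g exceeded Fcrls in 6 of 9 (0.45 ± 0.56) and Fcgrt exceeded Fcgr4 in 6 of 9 (0.79 ± 1.26), so neither of these neighbouring pairs had an order beyond its spread.

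**Figure D1:**
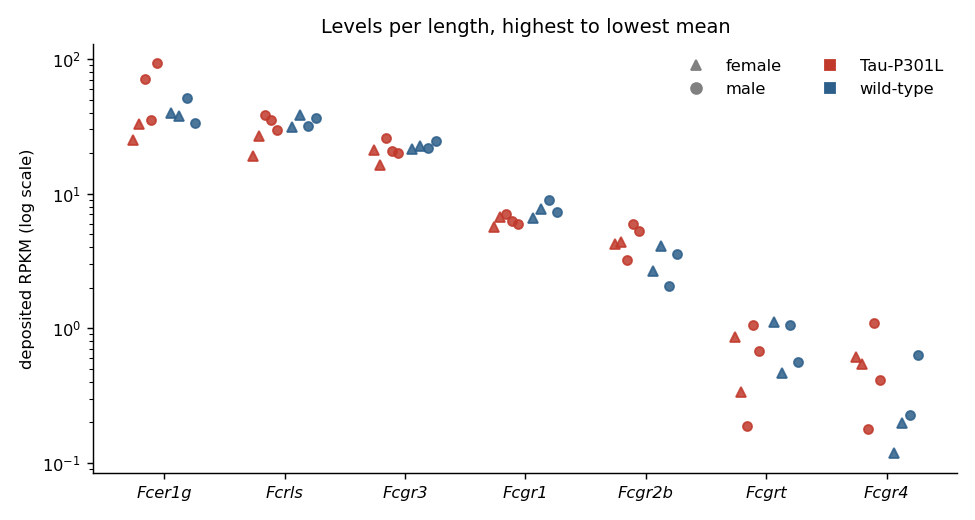
Deposited RPKM (log axis) of the 7 genes in each library, ordered by mean, with Tau-P301L libraries in red to the left of wild-type libraries in blue, triangles for females and circles for males. Fcer1g, Fcrls and Fcgr3 lie highest and Fcgrt and Fcgr4 lowest, below about 1 RPKM in most libraries.

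No member differed between Tau-P301L and wild-type cells beyond the spread between libraries. In edgeR's quasi-likelihood test with sex as a covariate, adjusted over all 12250 genes, 0 of 7 members passed an adjusted p of 0.05, where 0.00816% of all tested genes did (1 gene, Rfk, a riboflavin kinase). At an unadjusted p under 0.05, 0 of 7 members passed, where 6.35% of tested genes did. DESeq2 and limma-voom also called 0 of 7 members, where they called 24 and 1 of the 12250 genes. At an unadjusted p under 0.05 each found 0 of 7 members, where 977 and 732 of the 12250 genes passed. The CPM of Tau-P301L and wild-type libraries overlapped for 7 of 7 members, and 2.48% of tested genes had groups that did not overlap. A p that misses the threshold does not show equal levels: the 95% intervals of the log2 fold changes below give what the libraries allow. Cells were measured in bulk, so fewer cells of a type and less RNA per cell cannot be told apart.

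Among the activating receptors, Fcgr1 and Fcgr3 had means slightly lower in Tau-P301L cells, and Fcgr4 was near the limit of detection. Fcgr1 encodes the high-affinity receptor for IgG. It had 60.7, 73.2, 73.1, 66.3 and 62.1 CPM in Tau-P301L libraries 1 to 5, against 70.8, 81.5, 94.1 and 78.9 CPM in wild-type libraries 1 to 4. Of the Tau-P301L libraries 3 lay below every wild-type library, and the group averages were 67.1 ± 5.91 CPM (SD, n = 5) and 81.3 ± 9.66 CPM (SD, n = 4). The log2 fold change was -0.28 (SE 0.248, 95% interval -0.80 to 0.24, edgeR adjusted p = 0.860).

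Fcgr3, a low-affinity activating receptor for IgG immune complexes, was the most abundant of the antibody-binding receptors. It stood at 169, 131, 198, 164 and 155 CPM in Tau-P301L libraries 1 to 5, against 173, 179, 170 and 199 CPM in wild-type libraries 1 to 4. Tau-P301L library 3 alone lay within the wild-type range, the other 4 lying below it, narrowly for library 1 (169.3 against 169.9 CPM). On the RPKM scale library 3 lay above every wild-type library, at 25.7 against at most 24.7. The means were 164 ± 24.3 CPM (SD, n = 5) and 180.2 ± 13.2 CPM (SD, n = 4), with a log2 fold change of -0.16 (SE 0.219, 95% interval -0.61 to 0.30, edgeR adjusted p = 0.919). Without Tau-P301L library 2 the log2 fold change was -0.08. The summed deposited reads of Fcgr2b and Fcgr3 gave -0.06 (edgeR adjusted p = 0.966), a sum that does not recover reads lost from their shared stretches.

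Fcgr4, the mouse receptor with preference for IgG2a and IgG2b, rested on 10, 8, 2, 13 and 3 reads in Tau-P301L libraries 1 to 5, against 2, 3, 3 and 12 reads in wild-type libraries 1 to 4. Tau-P301L library 4 and wild-type library 4 held the most reads, and the groups overlapped. At this depth the log2 fold change of 0.97 had a 95% interval of -0.86 to 2.80 (SE 0.877, edgeR adjusted p = 0.862), so these reads allow anything from a lower level to one several-fold higher.

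Fcer1g, the ITAM chain on which the activating receptors depend, varied more between Tau-P301L libraries than between wild-type libraries. It had 99.7, 129.97, 272, 137 and 355 CPM in Tau-P301L libraries 1 to 5, against 158, 147, 199 and 133 CPM in wild-type libraries 1 to 4. Libraries 3 and 5 of Tau-P301L lay above all wild-type libraries and libraries 1 and 2 below all of them, and libraries 3 and 5 are the ones that stood apart in genes detected and in astrocyte markers, a link to Fcer1g that was not tested. The means were 199 ± 109.8 CPM (SD, n = 5) and 159 ± 28.1 CPM (SD, n = 4). The log2 fold change was 0.14 (SE 0.298, 95% interval -0.48 to 0.77, edgeR adjusted p = 0.942), and it was -0.36 without Tau-P301L libraries 3 and 5. These had the highest Fcer1g levels, so leaving them out had to lower the estimate. The log2 fold change was also negative without Tau-P301L library 5 alone (-0.05) or without wild-type library 4 alone (-0.10).

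**Figure D2:**
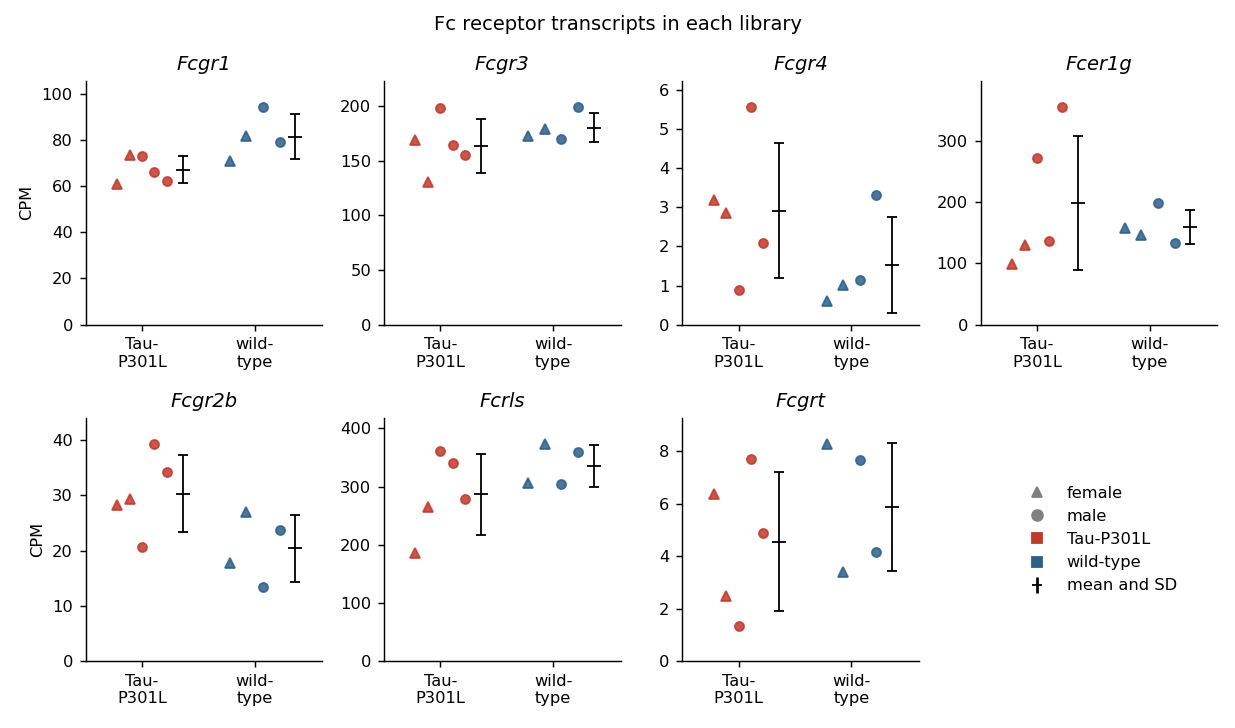
CPM of each of the 7 genes in each library on a linear axis from 0, Tau-P301L in red left of wild-type in blue, triangles for females and circles for males, with the mean and SD of each group as a black bar. Fcer1g spans 99.7 to 355 CPM in Tau-P301L libraries and 133 to 199 CPM in wild-type libraries, and Fcgr2b lies above the wild-type range in 4 of 5 Tau-P301L libraries.

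Fcgr2b, the inhibitory receptor, had the largest positive estimate among members with more than 30 reads in every library. It had 28.3, 29.3, 20.6, 39.3 and 34.2 CPM in Tau-P301L libraries 1 to 5, against 17.8, 26.9, 13.4 and 23.8 CPM in wild-type libraries 1 to 4. Of the Tau-P301L libraries 4 lay above every wild-type library, and library 3 lay within the wild-type range. The means were 30.3 ± 6.99 CPM (SD, n = 5) and 20.5 ± 6.07 CPM (SD, n = 4). The log2 fold change was 0.57 (SE 0.366, 95% interval -0.19 to 1.33, edgeR adjusted p = 0.803), and it was 0.37 without wild-type library 3, which had the lowest level.

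The ratio of activating to inhibitory receptor transcripts was lower on average in Tau-P301L libraries, with overlap between the groups. The summed RPKM of Fcgr1, Fcgr3 and Fcgr4 was 6.45, 5.39, 10.2, 4.69 and 4.97 times that of Fcgr2b in Tau-P301L libraries 1 to 5, against 10.6, 7.45, 15.0 and 9.17 times in wild-type libraries 1 to 4. Of the Tau-P301L libraries 4 lay below every wild-type library, and library 3 lay inside the wild-type range. On the log2 scale the ratio averaged 2.60 ± 0.45 (SD, n = 5) and 3.35 ± 0.42 (SD, n = 4), a difference of -0.75. Fcgr3 and Fcgr1 taken singly gave differences of -0.74 and -0.86 against Fcgr2b. Fcgr4, the third activating receptor, gave a difference of the other sign, 0.41, with log2 ratios of -3.22 ± 0.69 (SD, n = 5) and -3.64 ± 0.97 (SD, n = 4) that rest on few reads, and in males alone it was -0.60. Over the members' own values no test was made of these ratios, and Fcgr2b, the shared denominator, was the gene of lowest count among the receptors in the ratio other than Fcgr4.

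**Figure D3:**
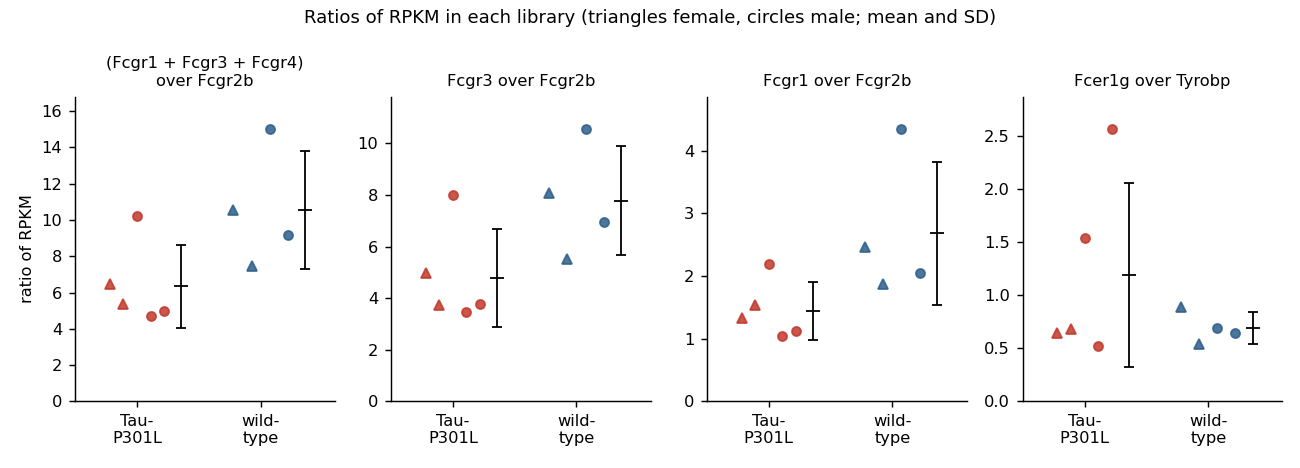
Ratios of RPKM in each library on linear axes from 0, Tau-P301L in red left of wild-type in blue, triangles for females and circles for males, with mean and SD. The ratio of activating receptors to Fcgr2b runs from 4.69 to 10.2 in Tau-P301L and from 7.45 to 15.0 in wild-type libraries, and Fcer1g over Tyrobp is highest in Tau-P301L libraries 3 and 5.

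Fcer1g was also set against the other ITAM adaptor, a ratio chosen after its values were seen. Fcer1g over Tyrobp in RPKM was 0.647, 0.678, 1.54, 0.520 and 2.56 in Tau-P301L libraries 1 to 5, against 0.892, 0.540, 0.695 and 0.642 in wild-type libraries 1 to 4. Outside Tau-P301L libraries 3 and 5, all 7 ratios lay between 0.520 and 0.892. Tyrobp itself averaged 111 ± 29.0 CPM over the 5 Tau-P301L libraries and 141 ± 31.2 CPM over the 4 wild-type libraries (SD), with a log2 fold change of -0.36 (SE 0.255, edgeR adjusted p = 0.816). Its partner receptor Trem2 averaged 96.5 ± 6.78 CPM over the 5 Tau-P301L libraries and 128 ± 29.4 CPM over the 4 wild-type libraries (SD), with a log2 fold change of -0.41 (SE 0.241, edgeR adjusted p = 0.789).

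Fcrls, a Fc receptor-like gene widely used as a marker of mouse microglia, was among the most abundant members. It had 186, 265, 361, 341 and 279 CPM in Tau-P301L libraries 1 to 5, against 306, 373, 304 and 359 CPM in wild-type libraries 1 to 4. Tau-P301L libraries 1, 2 and 5 lay below every wild-type library and libraries 3 and 4 lay within the wild-type range. The log2 fold change was -0.28 (SE 0.226, 95% interval -0.75 to 0.19, edgeR adjusted p = 0.846). It was -0.14 without Tau-P301L library 1, which had the lowest level, and -0.01 in males alone.

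Fcgrt pairs with B2m to form the neonatal Fc receptor, which returns internalised IgG and albumin to the cell surface. It rested on 20, 7, 3, 18 and 7 reads in Tau-P301L libraries 1 to 5, against 27, 10, 20 and 15 reads in wild-type libraries 1 to 4. The groups overlapped, with a log2 fold change of -0.36 (SE 0.663, 95% interval -1.75 to 1.02, edgeR adjusted p = 0.939). It was -0.07 without Tau-P301L libraries 3 and 5, and with 1 library left out it ran from -0.65 (without Tau-P301L library 4) to -0.10 (without wild-type library 1). B2m had a log2 fold change of 0.20 (SE 0.259, edgeR adjusted p = 0.913).

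**Figure D4:**
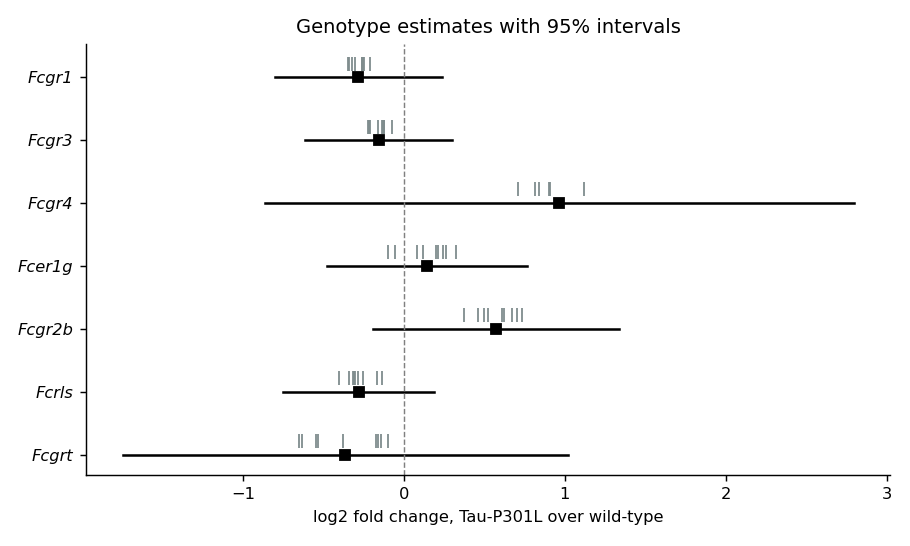
Genotype estimates (squares, log2 of Tau-P301L over wild-type) with 95% intervals (black lines) for the 7 genes, and above each the estimates with 1 library left out in turn (grey ticks). Every interval includes 0, and the Fcer1g ticks run from -0.10 to 0.32. Fcgr4 has no tick for leaving out Tau-P301L library 3, Tau-P301L library 4 or wild-type library 4, where it did not pass the low-count filter.

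Sex and its interaction with genotype were asked of the same genes. For sex, 0 of 7 members passed the adjusted threshold, where 0.049% of tested genes did, and 1 of 7 passed an unadjusted p under 0.05, where 2.43% did. That member was Fcer1g, with a log2 male-over-female change of 0.67 (SE 0.301, edgeR adjusted p = 0.99985). It passed the unadjusted threshold in DESeq2 but not in limma-voom. The male excess lay in Tau-P301L libraries 3 and 5 (272 and 355 CPM), while male library 4 had 137 CPM. Without libraries 3 and 5, an alternative chosen after seeing the data, the sex change of Fcer1g was 0.17 (SE 0.248, edgeR adjusted p = 0.999). Both are male and had the highest Fcer1g levels, so leaving them out had to lower this change. In that fit 0 of 7 members passed an unadjusted p under 0.05, where 416 of 12806 genes did. Fcer1g averaged 255 CPM in 3 male and 115 CPM in 2 female Tau-P301L libraries, and 166 CPM in 2 male and 153 CPM in 2 female wild-type libraries. For the interaction, 0 of 7 members and 0% of the 13302 genes in that fit were called by edgeR, with 526 genes at an unadjusted p under 0.05 and 4 calls by DESeq2. The interaction of Fcer1g was 1.03 on the log2 scale (SE 0.555, edgeR adjusted p = 0.999986). In females, with 2 libraries against 2, the groups did not overlap for 5 of 7 members, Fcgr3, Fcer1g and Fcrls being lower and Fcgr4 and Fcgr2b higher in Tau-P301L, where 33.9% of tested genes did not overlap. In males, with 3 against 2, only Fcgr1 had groups that did not overlap, being lower in Tau-P301L, where 21.5% of tested genes did not. With so few libraries and 0 interactions called, no difference between the sexes was shown for any member.

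The genes around the receptors were examined as lists. Of 101 tested pathway genes other than the members, 0 were called by edgeR, DESeq2 or limma-voom. Over all 12250 genes these tools called 1, 24 and 1. An unadjusted edgeR p under 0.05 was found for 5 of the 101 (4.95%), where 6.35% of all tested genes had one. Only 1 of the 101, Fgr, had groups that did not overlap, where 2.48% of all tested genes did. The median log2 fold change of the 101 pathway genes was -0.15, where that of all tested genes was -0.00. In the activating cascade below the receptors, 39 of 40 genes were tested, with 17 positive and 22 negative estimates and a median of -0.09. Fgr, a Src-family kinase of myeloid cells, had 14.9, 36.8, 26.5, 10.3 and 7.68 CPM in Tau-P301L libraries 1 to 5, against 7.36, 5.11, 6.50 and 3.6 CPM in wild-type libraries 1 to 4. Every Tau-P301L library exceeded the highest wild-type library, narrowly for library 5. Its log2 fold change of 1.79 (SE 0.510) did not pass adjustment (edgeR adjusted p = 0.547, and 0.0966 in DESeq2). Card9, an adaptor toward NF-kB, and the kinase Src had negative estimates of -0.95 (SE 0.430) and -1.02 (SE 0.475), each at an edgeR adjusted p of 0.776. Syk, the kinase that docks on phosphorylated ITAMs, averaged 125 ± 41.9 CPM over the 5 Tau-P301L libraries and 121 ± 25.0 CPM over the 4 wild-type libraries (SD), a log2 fold change of 0.01.

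Inhibitory signalling genes were listed together with other regulators of the kinases, Ptprc among them. Of these, 14 of 15 were tested, 5 with positive and 9 with negative estimates and a median of -0.15. Inpp5d, the lipid phosphatase SHIP1 recruited by the Fcgr2b motif, averaged 323 ± 111 CPM over the 5 Tau-P301L libraries and 429.6 ± 76.8 CPM over the 4 wild-type libraries (SD), with a log2 fold change of -0.40 (SE 0.254, edgeR adjusted p = 0.803). The 3 genes of smallest p were Csk, which restrains Src-family kinases (-0.71, SE 0.339), Ptprc, the phosphatase CD45 (0.44, SE 0.249) and Ptpn6, the phosphatase SHP-1 (-0.61, SE 0.348), at edgeR adjusted p of 0.776, 0.789 and 0.789.

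Phagocytosis genes were tested for 39 of 43, with 14 positive and 25 negative estimates and a median log2 fold change of -0.17. The smallest p belonged to Wasf2, a driver of actin branching (-0.58, SE 0.267), Bin1, a membrane-bending protein (-0.48, SE 0.248) and Arpc1a, a subunit of the Arp2/3 complex (-0.75, SE 0.394), at edgeR adjusted p of 0.776, 0.789 and 0.789. For the partner and degradation genes of internalised antibody, 6 of 6 were tested, 3 positive and 3 negative with a median of -0.05. Trim21, a cytosolic antibody receptor, and Vcp, the ATPase that works with it, had estimates of -0.20 (SE 0.301) and -0.23 (SE 0.384), at edgeR adjusted p of 0.926 and 0.935.

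The other Fc receptor genes were mostly too low to test. Of 12 such genes 2 were tested, Fcrl1, a receptor mainly of B cells (-0.89, SE 0.521, edgeR adjusted p = 0.789), and Trim21. Fcer1a and Fcmr had 0 reads in every library. Of 8 other ITAM adaptors 2 were tested, Tyrobp and Cd247, the T-cell receptor zeta chain (-0.15, SE 0.312, edgeR adjusted p = 0.941). Of the 13 immunoglobulin genes listed, only Jchain had a row, with 5 reads summed over Tau-P301L libraries and 13 over wild-type libraries.

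Genes whose log2 CPM tracked each member most closely across the 9 libraries were picked from the 3 highest Pearson correlations among 7358 genes at 10 CPM or more, and as maxima they carry no p. For Fcgr2b they were Polb (r = 0.97, rho = 0.97), Gm1966 (0.95, 0.95) and Pogk (0.94, 0.92), with r of 0.86 to 0.90 after the 2 libraries farthest from the median were left out. For Fcer1g they were Tacc2 (r = 0.95, rho = 0.88), Hsp90ab1 (0.95, 0.98) and Inafm2 (0.95, 0.77). Without Tau-P301L libraries 5 and 3, the 2 farthest, Hsp90ab1 kept an r of 0.96 and Tacc2 gave 0.80. Fcgr1 was closest to Sv2a, Hlf and Kri1 (r = 0.93, 0.93 and 0.92) and Fcgr3 to Nup88 and Kif5c (0.92 and 0.88). Fcrls was closest to Cwc22, Ergic3 and Adgrl1 (0.92, 0.89 and 0.89), and r dropped to 0.55 to 0.72 without Tau-P301L library 1 and wild-type library 2. Fcgr4 and Fcgrt were closest to Lars (0.94) and Tubb5 (0.91), with few reads behind either member.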

How the data were processed

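RNA of 9 libraries of sorted Cd11b+ cells was measured, 5 Tau-P301L and 4 wild-type. Counts were deposited as unnormalised whole numbers, per the file headers the reads with a unique alignment in a gene model. Reads were aligned with GSNAP to GRCm38, per the submitters' processing notes, with version, annotation and strand use not given in the sources used here. A second deposited column holds RPKM values that the authors scaled by a size factor, per the file headers. Of 36528 gene numbers 31049 matched a symbol in a RefSeq table of GRCm38.p6.

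Tests used edgeR 4.0.16 in R 4.3.3 on the counts: TMM factors, the default low-count filter, robust quasi-likelihood F tests with genotype and sex as terms (6 residual degrees of freedom, biological coefficient of variation 0.464), and Benjamini-Hochberg adjustment over all tested genes at 0.05. The interaction came from a fit with the product term. CPM are TMM-scaled. Intervals of fold changes cover 95%. DESeq2 1.42.0, limma-voom (limma 3.58.1), other scalings, no filter, no sex term, single sexes, left-out libraries and summed Fcgr2b and Fcgr3 reads were the alternatives. On simulated data for Tau-P301L over wild-type with 12250 genes, 1.2% of genes changed by 0.5 log2 units were called, 11.2% at 1, 58.4% at 2 and 80.4% at 3. The changed genes were drawn at random from all tested genes at any level, so these shares are not rates for the members. The median SE of the genotype estimate was 0.463 over all tested genes and 0.298 over the members.

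The members and lists were chosen with earlier results of these data known. Within each list the genes past the threshold were named, or else the 3 of smallest p, and Trem2 and Tyrobp whatever their values. Syk, Inpp5d and the genes at 0 reads were named after their values were seen. The rules also take genes that are not reported here.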

Additional observations from a re-analysis of the deposited data

Results flagged for a closer look

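Of 58 groups of member, pathway and ratio values examined for a library far from the others, 1 stood out. Chance alone gives about 1 in 20 groups, a larger share than was found. The log2 ratio of Fcgr3 over Fcgr1 was 1.27 in Tau-P301L library 2, against 1.74 to 1.91 in the other Tau-P301L libraries and 1.28 to 1.76 in wild-type libraries. B2m, the partner of Fcgrt, had groups separated in opposite directions in the sexes. With so few libraries separation is common: 33.9% of tested genes had separated groups in females and 21.5% in males, in either direction. In females B2m had 402 and 265 CPM in Tau-P301L, against 424 and 429 CPM in wild-type. In males it had 442, 294 and 445 CPM in Tau-P301L, against 278 and 215 CPM in wild-type. The interaction was 1.03 on the log2 scale (SE 0.474), and it did not pass adjustment over 13302 genes (edgeR adjusted p = 0.999986).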

How the results depend on the processing

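Across 19 alternatives 0 members were called for genotype, and the direction was kept by 6 of 7 members wherever they could be tested. Log2 fold changes ran from -0.36 to -0.19 for Fcgr1, -0.23 to -0.08 for Fcgr3 and 0.35 to 1.59 for Fcgr4. They ran from 0.36 to 0.75 for Fcgr2b, -0.59 to -0.01 for Fcrls and -0.65 to -0.07 for Fcgrt. Fcgr3 reads summed with those of Fcgr2b gave -0.06. Fcgr4 could be tested under 14. Fcer1g turned negative in females alone (-0.42) and without Tau-P301L libraries 3 and 5 (-0.36), which had its highest levels. It ran from -0.10 to 0.32 with 1 library left out, and the cause was not tested. The difference in the log2 ratio of activating receptors to Fcgr2b ran from -0.94 to -0.56 with 1 library left out. The count of genes called for genotype was 24 in DESeq2, 26 without a filter, 0 in females, in males and without Tau-P301L libraries 3 and 5, and 0 to 1 with 1 library left out. For sex it was 16 without a filter and 10 without Tau-P301L libraries 3 and 5 (chosen after seeing the data, as were the alternatives of the Fcgr4 ratio), where the sex change of Fcgr2b was 0.039, and for the interaction 4 in DESeq2 and 22 without a filter. The difference in the log2 ratio of Fcgr4 to Fcgr2b was 1.53 in females and -0.60 in males. The interaction of Fcgrt was -0.0085 under upper-quartile scaling. The median of the other Fc receptors was 0.35 without a filter and -0.10 in females. These settings differ in the genes tested or in the number of libraries, and the cause of the shifts was not tested. No paired analysis was possible because the labels give no replicate numbers that pair libraries. Depth limits Fcgr4 and Fcgrt, each at 3 reads or fewer in at least 1 library.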
